A study of Mus musculus with 15 samples.

Results

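The genes described here are 8 genes of cholesterol synthesis and its control, followed from circulating monocytes to the macrophage subsets of the mouse small intestine. They were given as a list of symbols, Hmgcs1, Idi1, Fdft1, Sqle, Lss, Cyp51, Insig1 and Srebf2, and each was matched to its Ensembl identifier in the count table. All 8 were among the 19456 genes of the table and among the 15802 genes with enough counts to be tested. The group was proposed as one of cholesterol synthesis and uptake, but 6 of its genes encode enzymes of synthesis and the other 2 encode regulators, so genes of uptake were read from a separate list.

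Cells of adult male wild type C57BL/6 mice were sorted into 4 populations, and strand-specific RNA libraries were sequenced from each. Ly6Chi monocytes came from blood (3 libraries). Macrophages from enzyme-digested small intestine (4 libraries of each subset) were divided by surface Tim-4 and CD4: Tim-4-CD4- cells, called the CD4- subset below, Tim-4-CD4+ cells, and Tim-4+CD4+ cells, called the Tim-4+ subset below. Each library held cells of 3 pooled mice, or of 4 for replicate 2 of the monocytes, and the populations differed neither in genotype nor in treatment. Blood was not digested as the gut was, so in any difference between monocytes and macrophages the population and the preparation cannot be told apart.

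Total counts per library lay between 39388763 and 151510641, and their median was 63249039. Levels are given as CPM, the usual count scaled to library size, with TMM factors. The sort was visible in the RNA: Timd4, which encodes Tim-4, lay between 336 and 389.9 CPM in the Tim-4+ subset and at no more than 4.47 CPM in any other library, and Cd4 averaged 22.9 CPM in the CD4- subset against 531 and 816 CPM in the CD4+ subsets. The 8 macrophage markers summed to 25749 CPM or more in every macrophage library and to 3705 CPM or less in the monocytes, and the 5 monocyte markers to at least 11375 CPM in the monocytes and to 26.1 to 864 CPM in the macrophages.

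Cells make cholesterol from acetyl-CoA. Hmgcs1 makes HMG-CoA, the precursor of mevalonate, Idi1 interconverts the isoprenoid building blocks, Fdft1 joins farnesyl units into squalene, Sqle oxidises squalene, Lss closes the rings to give lanosterol, and Cyp51 removes a methyl group from lanosterol on its way to cholesterol. The transcription factor encoded by Srebf2, SREBP-2, switches on these enzymes and genes of lipoprotein uptake when sterol in the endoplasmic reticulum is low. Insig1 holds the SREBP precursor there when sterol is plentiful and is itself a target of SREBPs. Resident macrophages take up dead cells and lipoproteins and so handle much cholesterol that they did not make.

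Promoters of 4 of the genes are shown because SREBP-2 acts through a sterol regulatory element that is often read together with a CCAAT box, bound by NF-Y. RefSeq promoter windows (GRCm38.p6) matched 6 of the 8 genes, all but Sqle and Fdft1. Each sequence runs 5′ to 3′ on the strand of its gene over bases before the annotated start, leaving out bases that the gene annotation counts as transcribed. Capitals mark TCACNNCA, of which TCACNCCA is the stricter form, and CCAAT, each searched on both strands, so that a CCAAT box on the other strand reads ATTGG.
Hmgcs1, chr13:119690101-119690350, plus strand: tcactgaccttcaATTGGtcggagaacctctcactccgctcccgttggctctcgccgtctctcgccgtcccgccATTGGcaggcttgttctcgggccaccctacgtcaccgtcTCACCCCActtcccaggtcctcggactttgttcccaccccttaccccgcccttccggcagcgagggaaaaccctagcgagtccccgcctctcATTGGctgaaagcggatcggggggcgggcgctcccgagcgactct
Cyp51, chr5:4104747-4104947, minus strand: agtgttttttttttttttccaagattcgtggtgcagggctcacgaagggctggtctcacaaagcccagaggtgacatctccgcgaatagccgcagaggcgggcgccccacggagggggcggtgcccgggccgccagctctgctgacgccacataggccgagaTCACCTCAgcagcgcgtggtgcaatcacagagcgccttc
Insig1, chr5:28071162-28071362, plus strand: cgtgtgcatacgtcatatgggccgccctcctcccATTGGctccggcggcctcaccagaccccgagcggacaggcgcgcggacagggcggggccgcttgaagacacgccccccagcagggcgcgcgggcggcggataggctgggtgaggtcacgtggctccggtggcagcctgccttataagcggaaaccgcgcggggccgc
Srebf2, chr15:82147019-82147180, plus strand: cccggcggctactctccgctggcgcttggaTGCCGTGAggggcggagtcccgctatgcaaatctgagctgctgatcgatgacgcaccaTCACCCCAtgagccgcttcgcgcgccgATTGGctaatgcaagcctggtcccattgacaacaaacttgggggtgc

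Hmgcs1 and Srebf2, which differed in direction below, carried the same element, TCACCCCA, at positions -137 to -130 from the start of Hmgcs1 and -162 to -155 from that of Srebf2. In the 250 bases before the start, TCACNCCA was found in 2 of the 6 genes, against 3.67% of 32851 windows over all genes, and TCACNNCA in 3 of the 6 (Hmgcs1, Cyp51 and Srebf2), against 11.4%. A CCAAT box was found in all 6, against 33.8% of windows. For Cyp51 and Idi1 it lay only in bases that the gene annotation counts as transcribed, so the Cyp51 sequence above shows none. These are matches of letters and not measured binding, and the lack of one in Insig1, Idi1 or Lss says only that the letters are not in those windows.

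Among the gut subsets, most of the enzymes were higher in both CD4+ subsets than in the CD4- subset. The summed level of the 6 enzymes was 183 ± 9.69 CPM in the CD4- subset (SD, n = 4), 291 ± 44.2 CPM in Tim-4-CD4+ cells (SD, n = 4) and 269 ± 36.5 CPM in the Tim-4+ subset (SD, n = 4), beside 159 ± 16.3 CPM in monocytes (SD, n = 3). The lowest library of the CD4+ subsets, at 237 CPM, lay above the highest of the CD4- subset, at 193 CPM. In bulk RNA, fewer cells expressing a gene and less of its RNA per cell cannot be told apart.

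**Figure D1:**
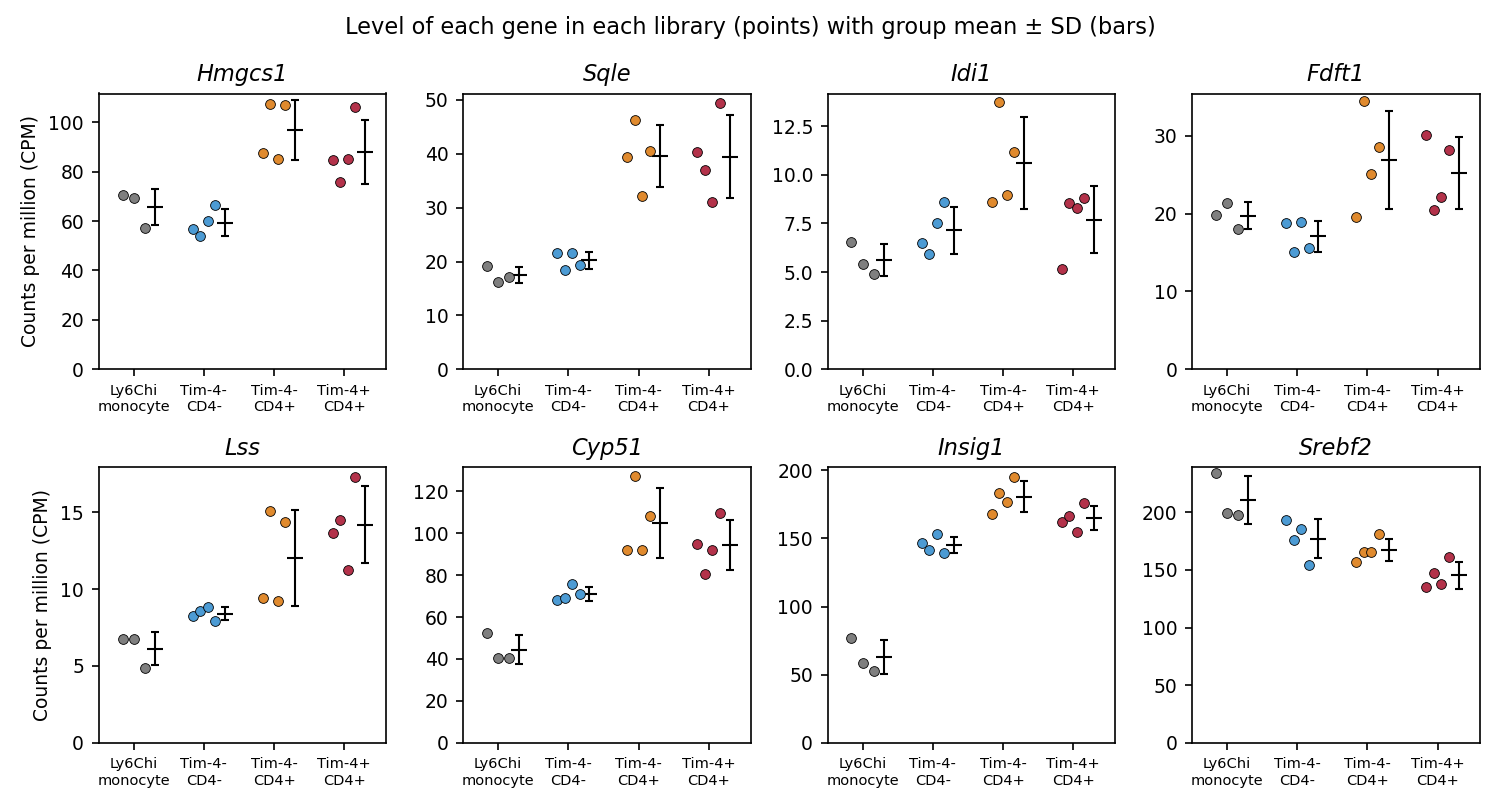
Level of each of the 8 genes, in CPM on a linear axis from 0, in every library (points) of the 4 populations, with the mean and SD of each population (bars beside the points). Sqle lay between 31.0 and 49.5 CPM in the libraries of the CD4+ subsets and between 18.4 and 21.6 CPM in the CD4- subset, and Srebf2 was highest in the monocytes.

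Sqle, squalene epoxidase (chr15:59315077-59331192, GRCm38), differed most between the subsets. Its level was 21.6, 18.4, 21.6 and 19.4 CPM in replicates 1 to 4 of the CD4- subset, 39.4, 46.2, 32.2 and 40.4 CPM in Tim-4-CD4+ cells and 40.3, 37.0, 31.0 and 49.5 CPM in the Tim-4+ subset. Every library of the CD4+ subsets was above every library of the CD4- subset, whereas the monocytes, at 19.1, 16.2 and 17.1 CPM, overlapped with the CD4- subset alone. The fitted log2 fold change over the CD4- subset was 0.97 ± 0.13 (SE, edgeR adjusted p = 0.000154) in Tim-4-CD4+ cells, or 1.95-fold, and 0.96 ± 0.13 (SE, edgeR adjusted p = 5.14e-05) in the Tim-4+ subset.

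Hmgcs1, HMG-CoA synthase (chr13:119690379-119708260), read 56.6, 54.0, 60.2 and 66.5 CPM in the CD4- subset, 87.7, 108, 84.9 and 107 CPM in Tim-4-CD4+ cells and 84.7, 75.6, 85.0 and 106 CPM in the Tim-4+ subset. Again every library of the CD4+ subsets was above the CD4- subset, and the monocytes, at 70.4, 69.4 and 57.3 CPM, overlapped with the latter. Hmgcs1 was 1.63-fold higher in Tim-4-CD4+ cells, a log2 fold change of 0.71 ± 0.12 (SE, edgeR adjusted p = 0.000842), and 1.48-fold higher in the Tim-4+ subset, at 0.57 ± 0.12 (SE, edgeR adjusted p = 0.00196).

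Cyp51, the sterol demethylase (chr5:4081145-4104746), read 68.2, 69.1, 75.8 and 71.0 CPM in the CD4- subset, 91.8, 127, 92.1 and 108 CPM in Tim-4-CD4+ cells and 95.01, 80.8, 92.0 and 109.9 CPM in the Tim-4+ subset. The CD4- subset did not overlap with the others. Its log2 fold change over the CD4- subset was 0.56 ± 0.12 (SE, edgeR adjusted p = 0.00606) in Tim-4-CD4+ cells and 0.41 ± 0.12 (SE, edgeR adjusted p = 0.0212) in the Tim-4+ subset. The second call was lost without replicate 4 of the Tim-4+ subset, at 0.33 (edgeR adjusted p = 0.0781).

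Fdft1, squalene synthase (chr14:63145150-63179578), spread more within the CD4+ subsets. The CD4- subset gave 18.8, 15.1, 18.9 and 15.6 CPM, Tim-4-CD4+ cells 19.5, 34.4, 25.0 and 28.6 CPM and the Tim-4+ subset 30.1, 20.4, 22.1 and 28.2 CPM, so that the ranges nearly met but did not overlap. The log2 fold change was 0.65 ± 0.16 (SE, edgeR adjusted p = 0.0143) in Tim-4-CD4+ cells and 0.56 ± 0.16 (SE, edgeR adjusted p = 0.0173) in the Tim-4+ subset. Both calls were lost without 1 library: without replicate 2 of Tim-4-CD4+ cells the first was 0.52 (edgeR adjusted p = 0.0589), and without replicate 4 of the Tim-4+ subset the second was 0.50 (edgeR adjusted p = 0.0540). Fdft1 also shares 774 exon bases with Ctsb, a lysosomal protease gene on the other strand, which averaged 3824 CPM in the CD4- subset, 4841 CPM in Tim-4-CD4+ cells and 5394 CPM in the Tim-4+ subset. Whether strand was used in counting is not given in the sources used here, so the values of Fdft1 are uncertain. Cyp51 shares 166 exon bases with Akap9, which was not called in any comparison.

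Lss, lanosterol synthase (chr10:76531588-76557138), read 8.21, 8.59, 8.86 and 7.92 CPM in the CD4- subset, 9.43, 15.05, 9.19 and 14.4 CPM in Tim-4-CD4+ cells and 13.6, 14.5, 11.3 and 17.3 CPM in the Tim-4+ subset. Tim-4-CD4+ libraries formed a low pair and a high pair, and both lay above the CD4- subset. Lss was higher in the Tim-4+ subset, with a log2 fold change of 0.75 ± 0.18 (SE, edgeR adjusted p = 0.00464), while the value of 0.52 ± 0.18 (SE, edgeR adjusted p = 0.0760) in Tim-4-CD4+ cells did not pass. Without replicate 1 or 3 of Tim-4-CD4+ cells it passed, at 0.61 (edgeR adjusted p = 0.0452) and 0.62 (edgeR adjusted p = 0.0334), and it passed by DESeq2 (adjusted p = 0.0266).

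Idi1, the isoprenoid isomerase (chr13:8885501-8892451), read 6.50, 5.91, 7.52 and 8.62 CPM in the CD4- subset, 8.59, 13.7, 8.94 and 11.2 CPM in Tim-4-CD4+ cells and 5.15, 8.55, 8.28 and 8.82 CPM in the Tim-4+ subset. The ranges of all 3 subsets overlapped. Neither change from the CD4- subset passed the test, with log2 fold changes of 0.57 ± 0.19 (SE, edgeR adjusted p = 0.0719) in Tim-4-CD4+ cells and 0.11 ± 0.19 (SE, edgeR adjusted p = 0.737) in the Tim-4+ subset. Their 95% intervals ran from 0.17 to 0.98 and from -0.30 to 0.51. Without replicate 1 of the Tim-4+ subset the first passed, at 0.57 (edgeR adjusted p = 0.0237), and it passed by DESeq2 too (adjusted p = 0.0222).

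Insig1 (chr5:28071363-28078662), the sterol-dependent brake on SREBP, read 146, 142, 153 and 139 CPM in the CD4- subset, 168, 183, 176 and 195 CPM in Tim-4-CD4+ cells and 162, 166, 155 and 176 CPM in the Tim-4+ subset. The libraries of the CD4+ subsets were all above the CD4- subset, but log2 fold changes of 0.32 ± 0.10 (SE, edgeR adjusted p = 0.0571) and 0.18 ± 0.10 (SE, edgeR adjusted p = 0.210) did not pass. The first passed by DESeq2 (adjusted p = 0.0102) and, at 0.32, 0.32 and 0.32, without monocyte replicate 1, monocyte replicate 3 or replicate 1 of the Tim-4+ subset (edgeR adjusted p = 0.0111, 0.0345 and 0.0409).

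Srebf2 (chr15:82147181-82205379), the factor that drives the enzymes, read 193, 176, 186 and 154 CPM in the CD4- subset, 157, 165, 165 and 181 CPM in Tim-4-CD4+ cells and 135, 147, 138 and 161 CPM in the Tim-4+ subset. Its ranges overlapped between all subsets. Srebf2 was lower in the Tim-4+ than in the CD4- subset, with a log2 fold change of -0.29 ± 0.09 (SE, edgeR adjusted p = 0.0327), and in Tim-4-CD4+ cells the value was -0.08 ± 0.09 (SE, edgeR adjusted p = 0.668). The call was lost when any one of replicates 1, 2 and 3 of the CD4- subset or of the Tim-4+ subset was left out, at log2 fold changes of -0.29 to -0.24 and edgeR adjusted p-values of 0.0628 to 0.111.

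Counted together, 4 of the 8 genes were called between Tim-4-CD4+ cells and the CD4- subset, where 10.1% of all tested genes were called. All 4 were higher (4.52% of all genes were higher and 5.53% lower), and in 6 of the 8 every Tim-4-CD4+ library was above the CD4- subset, as in 9.16% of all genes. Between the Tim-4+ and CD4- subsets, where 23.1% of genes were called, 5 of the 8 were higher (11.3% of all genes) and Srebf2 was the 1 that was lower (11.9% of all genes). In 6 of the 8 every library of the Tim-4+ subset was above the CD4- subset, as in 12.5% of all genes. The median log2 fold change of the 8 genes was 0.57 and 0.49 in these comparisons, which share the CD4- libraries, beside -0.0029 and -0.0047 for all genes. DESeq2 called 7 of the 8 in the first comparison and 6 in the second, where it called 2154 and 4216 of 19456 genes. An alternative added after the data were seen left out the 3 libraries whose description ends in 4. The counts were then 2 and 4 of the 8, where 734 and 2196 of 15839 genes were called. Fdft1 and Cyp51 lost their calls in both.

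Other signals were read across the same subsets, and the ranges of several of them overlapped. The 8 markers of mesenchyme, endothelium and enteric nerve cells were all detected in each subset and summed to 140 to 152.4 CPM in the CD4- subset, 209 to 248 CPM in Tim-4-CD4+ cells and 334 to 412 CPM in the Tim-4+ subset, most of it Pecam1 at a mean of 104, 185 and 305 CPM, while Col1a1 averaged 19.4, 20.5 and 32.0 CPM. In the same order, the 6 T cell markers summed to 2.82 to 5.58, 7.0001 to 11.0 and 4.96 to 7.09 CPM, and the 10 epithelial markers to 13.8 to 31.2, 20.6 to 26.1 and 21.5 to 34.2 CPM. The 6 B and plasma cell markers, mostly Igha, summed to 2533 to 3815, 1930.1 to 4130.5 and 2015 to 5033 CPM. The 5 granulocyte markers in the table, of 7 listed, summed to 5.73 to 10.5, 8.90 to 10.7 and 11.5 to 17.1 CPM, with 1 of them at 0 in every subset, and the 5 dendritic cell markers to 89.5 to 153, 85.1 to 126 and 81.6 to 112 CPM. The 10 proliferation genes summed to 330 to 415 CPM in the CD4- subset, 278 to 342 CPM in Tim-4-CD4+ cells, which overlapped with it, and 194 to 264 CPM in the Tim-4+ subset. Against the CD4- subset, 2 of the 10 were lower in Tim-4-CD4+ cells and 10 in the Tim-4+ subset (5.53% and 11.9% of all genes). The part of these signals in the sterol gene differences was not tested.

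**Figure D2:**
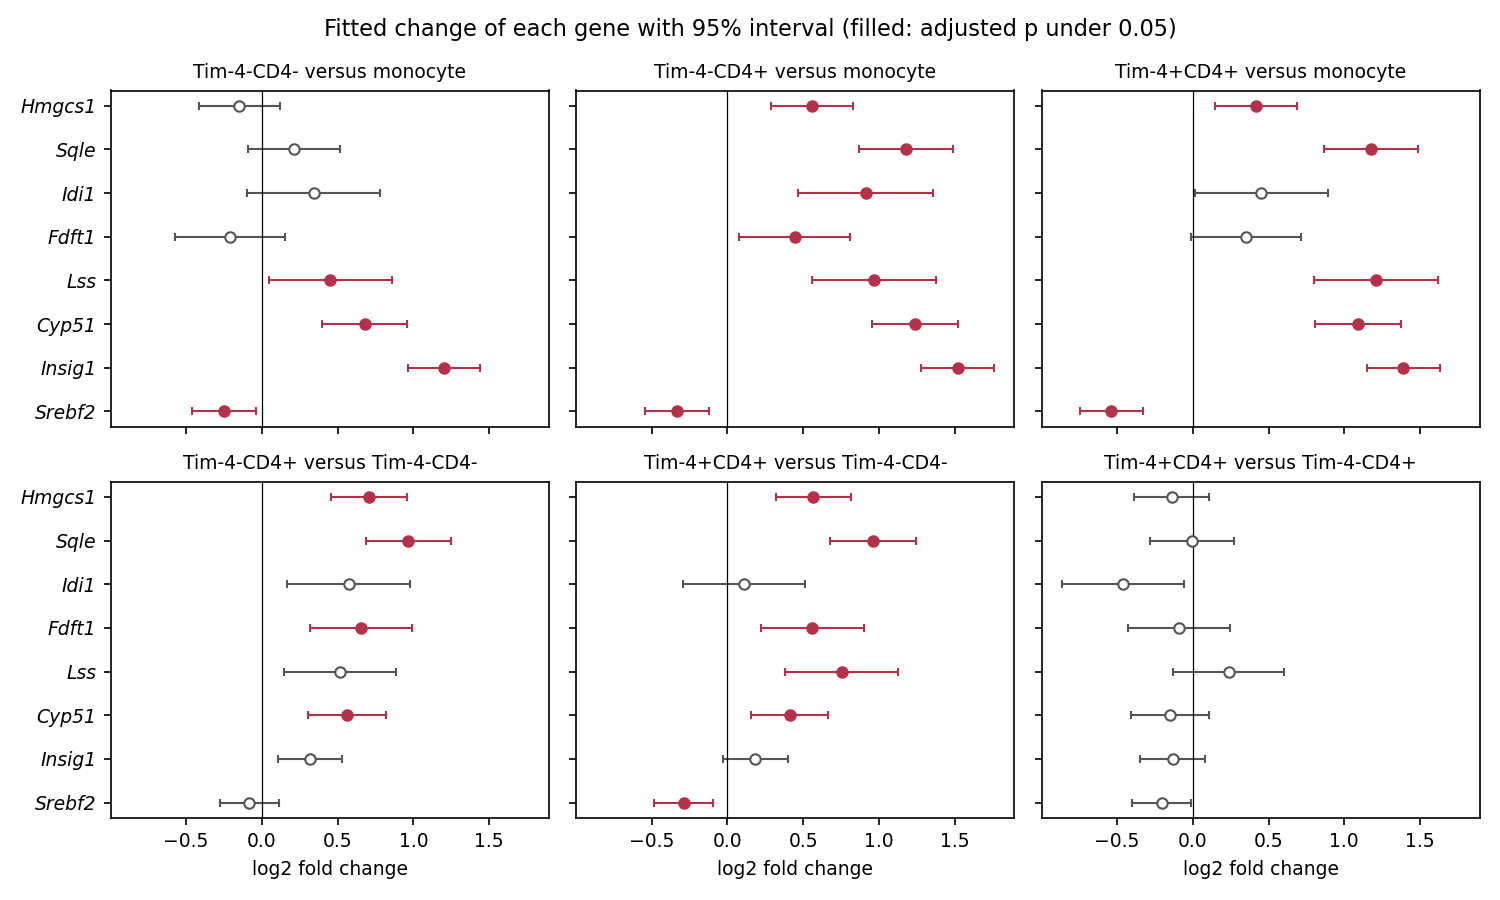
Fitted log2 fold change (horizontal axis) of each gene in the 6 pairwise comparisons, with its 95% interval from the edgeR fit; filled points passed an adjusted p of 0.05. The enzymes sit right of 0 in both comparisons of a CD4+ subset with the CD4- subset, Srebf2 sits left of 0 in all 6 comparisons, and no gene is filled where the CD4+ subsets are compared.

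Between the CD4+ subsets, which differ in Tim-4, edgeR called 0 of the 8 genes, where 3.41% of all genes were called (2.07% higher and 1.34% lower). At an unadjusted p under 0.05, 2 of the 8 passed (Idi1 and Srebf2), and DESeq2 called 0, where it called 917 of 19456 genes. The log2 fold changes of the Tim-4+ subset over Tim-4-CD4+ cells ran from -0.46 ± 0.19 (SE, edgeR adjusted p = 0.258) for Idi1 to 0.24 ± 0.17 (SE, edgeR adjusted p = 0.551) for Lss. For Sqle the value was -0.0038 with a 95% interval of -0.28 to 0.27, for Hmgcs1 -0.14 with an interval of -0.39 to 0.11, and for Cyp51 -0.15 with an interval of -0.41 to 0.11. The value for Sqle was near 0 and its sign changed under 13 of 24 alternatives. The interval for Fdft1 was -0.43 to 0.24, for Insig1 -0.35 to 0.08 and for Srebf2 -0.40 to -0.01.

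Against Ly6Chi monocytes, the circulating precursors of many gut macrophages, the count differed by subset. In the CD4- subset 4 of the 8 genes were called (3 higher, 1 lower), where 65.4% of all genes were called (37.3% higher, 28.1% lower), and Hmgcs1, Sqle, Idi1 and Fdft1 were not called. Tim-4-CD4+ cells had 8 of the 8 called (7 higher, 1 lower), where 69.8% of all genes were called (39.1% higher, 30.7% lower). The Tim-4+ subset had 6 of the 8 called (5 higher, 1 lower), where 70.9% of all genes were called (39.5% higher, 31.3% lower). The share called was below the background in the CD4- subset and near it in the Tim-4+ subset.

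Insig1, at 77.1, 58.6 and 53.0 CPM in the monocytes, was below every macrophage library there and rose most. The log2 fold change was 1.20 ± 0.11 (SE, edgeR adjusted p = 7.56e-08) in the CD4- subset, 1.52 ± 0.11 (SE, edgeR adjusted p = 3.78e-09) in Tim-4-CD4+ cells and 1.39 ± 0.11 (SE, edgeR adjusted p = 1.05e-08) in the Tim-4+ subset. Cyp51, at 52.3, 40.6 and 40.2 CPM in monocytes, rose in all 3 subsets too. Its log2 fold changes in the same order were 0.68 ± 0.13 (SE, edgeR adjusted p = 0.000282), 1.24 ± 0.13 (SE, edgeR adjusted p = 4.35e-07) and 1.09 ± 0.13 (SE, edgeR adjusted p = 1.78e-06).

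Lss, at 6.75, 6.73 and 4.87 CPM in the monocytes, was higher in the CD4- subset by 0.45 ± 0.19 (SE, edgeR adjusted p = 0.0469) on the log2 scale. That call was lost without replicate 3 of the monocytes, at 0.34 (edgeR adjusted p = 0.167), and without any one of replicates 1, 2 and 3 of the CD4- subset, at 0.44 to 0.48. In the CD4+ subsets its log2 fold changes were 0.97 ± 0.19 (SE, edgeR adjusted p = 0.000283) and 1.21 ± 0.19 (SE, edgeR adjusted p = 3.26e-05). Sqle rose in the same subsets, with 1.18 ± 0.15 (SE, edgeR adjusted p = 2.06e-06) in Tim-4-CD4+ cells and 1.17 ± 0.15 (SE, edgeR adjusted p = 1.98e-06) in the Tim-4+ subset, and the 0.21 ± 0.14 (SE, edgeR adjusted p = 0.205) of the CD4- subset did not pass. Hmgcs1 gave -0.15 ± 0.13 (SE, edgeR adjusted p = 0.314) in the CD4- subset, 0.56 ± 0.13 (SE, edgeR adjusted p = 0.000982) in Tim-4-CD4+ cells and 0.42 ± 0.13 (SE, edgeR adjusted p = 0.00754) in the Tim-4+ subset.

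Idi1, at 6.52, 5.43 and 4.89 CPM in monocytes, was higher in Tim-4-CD4+ cells by 0.91 ± 0.21 (SE, edgeR adjusted p = 0.00100) log2, while 0.34 ± 0.21 (SE, edgeR adjusted p = 0.1602) in the CD4- subset and 0.45 ± 0.21 (SE, edgeR adjusted p = 0.0617) in the Tim-4+ subset did not pass. The last value passed under 10 of 24 alternatives, and without replicate 1 of the Tim-4+ subset, its lowest library for Idi1, it was 0.62 (edgeR adjusted p = 0.00598). Fdft1, at 19.8, 21.4 and 17.9 CPM in monocytes, was called in Tim-4-CD4+ cells alone, at 0.44 ± 0.17 (SE, edgeR adjusted p = 0.0302), beside -0.21 ± 0.17 (SE, edgeR adjusted p = 0.298) in the CD4- subset and 0.35 ± 0.17 (SE, edgeR adjusted p = 0.0771) in the Tim-4+ subset. Its call was lost without replicate 2 of Tim-4-CD4+ cells, at 0.33 (edgeR adjusted p = 0.0968), without replicate 4 of those cells, at 0.43, and without monocyte replicate 1 or 3, at 0.48 and 0.41. In the Tim-4+ subset Fdft1 passed under 8 of 24 alternatives.

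Srebf2 went the other way. The monocytes had its highest levels, 234, 199.8 and 198 CPM, above every macrophage library. The log2 fold change was -0.25 ± 0.10 (SE, edgeR adjusted p = 0.0357) in the CD4- subset, -0.33 ± 0.10 (SE, edgeR adjusted p = 0.00675) in Tim-4-CD4+ cells and -0.54 ± 0.10 (SE, edgeR adjusted p = 0.000131) in the Tim-4+ subset. The first call was lost under 18 of 24 alternatives, among them leaving out monocyte replicate 1 or 2, replicate 2, 3 or 4 of the CD4- subset, any Tim-4-CD4+ library or replicate 2 of the Tim-4+ subset, RLE scaling at -0.22 (edgeR adjusted p = 0.0525) and upper-quartile scaling at -0.18 (edgeR adjusted p = 0.0986). Without replicate 1 of the monocytes the first value was -0.14 (edgeR adjusted p = 0.253) and the second -0.22 (edgeR adjusted p = 0.0761).

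Immediate early genes, known to rise during tissue digestion, summed to 694 to 897 CPM in the monocytes and to 23957 to 34015 CPM in the macrophages, and the 10 proliferation genes to 77.1 to 89.6 CPM against 194 to 415 CPM. The part of digestion or of cycling cells in the differences from monocytes was not tested. Median log2 fold changes of the 8 genes from monocytes were 0.28, 0.94 and 0.77 in the 3 subsets, and those of all tested genes 0.08, 0.11 and 0.10. Upper-quartile scaling raised the last of these all-gene medians to 0.21.

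**Figure D3:**
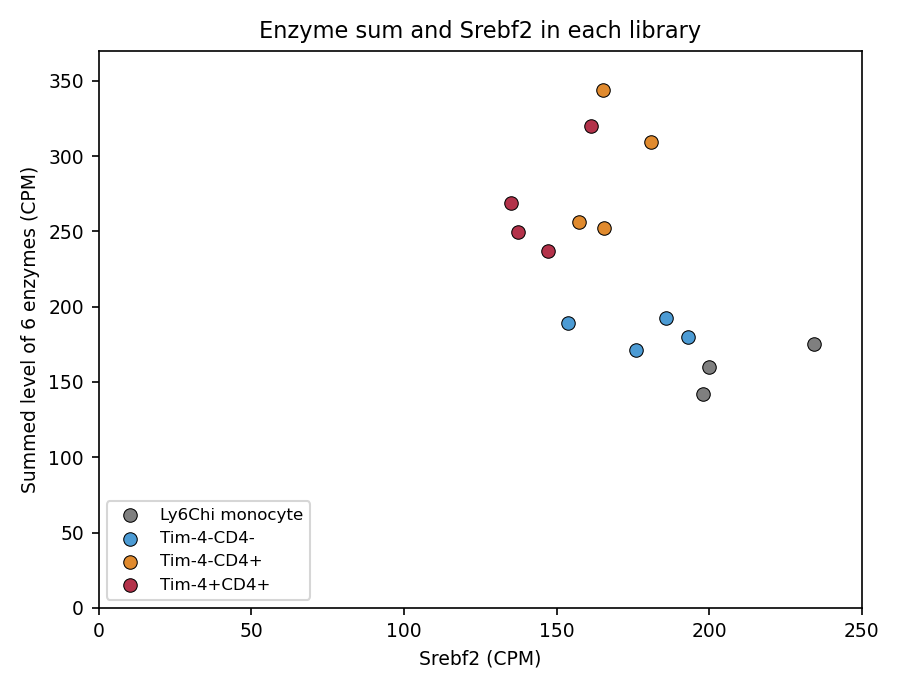
Summed level of the 6 enzymes (vertical axis, CPM) against the level of Srebf2 (horizontal axis, CPM) in each of the 15 libraries, coloured by population; both axes start at 0. The monocytes lie at the lower right, at 142 to 175 CPM of enzymes, and the CD4+ subsets to the upper left of them, at 237 to 344 CPM.

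By their means, the summed enzymes and Srebf2 ranked the populations in nearly opposite orders, though not every step between populations passed a test. Srebf2 in Tim-4-CD4+ cells against the CD4- subset did not (edgeR adjusted p = 0.668). Of the mean sum of 291 CPM in Tim-4-CD4+ cells, Hmgcs1 held 96.8 and Cyp51 105 CPM. The level of Srebf2 is that of its RNA, and the processed protein was not measured. Per CPM of Srebf2, the summed enzymes stood at 0.755 ± 0.0411 in monocytes (SD, n = 3), 1.04 ± 0.132 in the CD4- subset (SD, n = 4), 1.74 ± 0.242 in Tim-4-CD4+ cells (SD, n = 4) and 1.85 ± 0.18 in the Tim-4+ subset (SD, n = 4). The ranges of this ratio overlapped between the CD4+ subsets and between no other populations. Over the 15 libraries, Pearson's r between the log2 CPM of a gene and the mean standardized profile of the other 7 was 0.71 to 0.90 for the 6 enzymes and Insig1 and -0.57 for Srebf2. Libraries of a population share that population, so these values describe populations more than independent points.

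Per length, as reads per kilobase of merged exon in CPM units (RPKM), Srebf2 led in the monocytes at a mean of 29.3 RPKM, followed by Insig1 at 20.3, Hmgcs1 at 14.3 and Cyp51 at 10.1 RPKM. In Tim-4-CD4+ cells Insig1 led at 58.4 RPKM, and Cyp51 at 23.7, Srebf2 at 23.3 and Hmgcs1 at 21.1 RPKM were within each other's spread. Cyp51 had the highest mean per length of the 6 enzymes in each macrophage subset. In the Tim-4+ subset too, Hmgcs1, at 19.1 ± 2.8 RPKM, was within the spread of Cyp51, at 21.4 ± 2.7 RPKM (SD, n = 4 each). Sqle, Fdft1, Idi1 and Lss were lower in every population, at 0.567 to 7.14 RPKM, and Lss was lowest, though its merged exons span 10787 bases, the most of the 8 genes.

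In some libraries the enzymes stood together above or below their subset mean. Among Tim-4-CD4+ libraries replicate 2 had the highest level of all 6 enzymes and replicate 4 was above the subset mean for all 6, whereas replicate 3 was below it for all 6 and replicate 1 for 5. In the Tim-4+ subset replicate 4 had the highest level of 5 of the 6. Others were mixed: replicates 1 and 4 of the CD4- subset had 2 and 3 of the 6 above the mean, and replicates 1 and 2 of the Tim-4+ subset 3 and 2. The highest libraries of the CD4+ subsets, Tim-4-CD4+ replicate 2 and Tim-4+ replicate 4, both have a description that ends in 4, and their deviations over all genes correlated at r = 0.14. After the subset means were subtracted, all 15 pairs of enzymes had a Pearson r above 0 over the 12 macrophage libraries, from 0.16 for Idi1 with Fdft1 to 0.86 for Hmgcs1 with Cyp51, with a median of 0.66. Each pair was measured in the same libraries and shares their depth and composition. Neither these values nor the counts of enzymes above the mean were set beside those of all genes, so they have no background here. Total counts of the 3 high libraries were 39568129, 151510641 and 59404864, and those of the low Tim-4-CD4+ libraries 82922516 and 54107962. The part of depth in the shared deviations was not tested.

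Insig1 and Srebf2 differed in how closely they followed this variation. With the mean of the other 7 genes their r was 0.80 and 0.50 over the 12 centred macrophage libraries, against 0.71 and -0.57 over all 15 libraries. With single enzymes the centred r of Srebf2 ran from 0.16 for Idi1 to 0.55 for Lss. The subsets were pooled in these values, and not every library followed. In replicate 4 of the CD4- subset Srebf2 was lowest, at -0.20 log2 from its subset mean, while the mean of the 6 enzymes was at 0.03. In replicate 2 of Tim-4-CD4+ cells, the highest for all 6 enzymes, Srebf2 was at -0.015 and their mean at 0.31. Insig1 and Srebf2 were related to each other at r = 0.80 over the same 12 libraries, and each is among the 7 genes that the other was compared with.

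**Figure D4:**
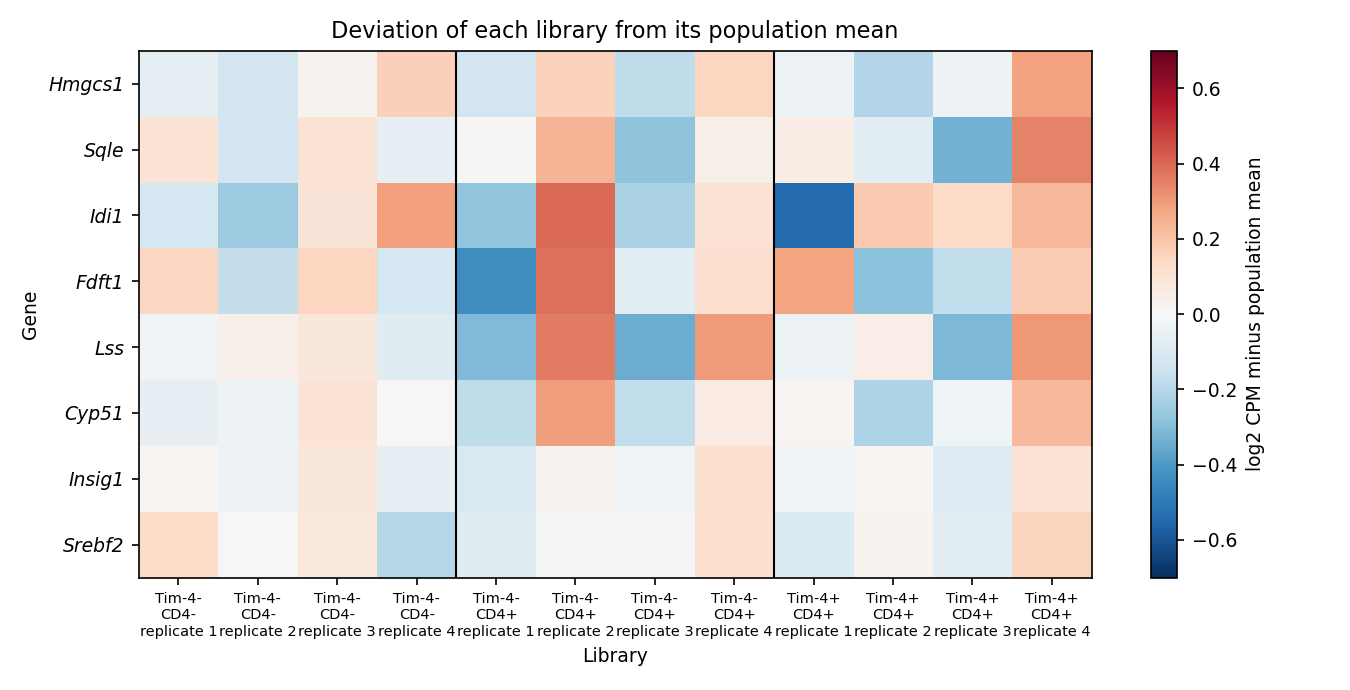
Deviation of each library from the mean of its own population, in log2 CPM (colour scale, red above and blue below), for the 8 genes (rows) in the 12 macrophage libraries (columns, subsets separated by lines). Replicate 2 of Tim-4-CD4+ cells and replicate 4 of the Tim-4+ subset are red for the 6 enzymes, and Idi1 in replicate 1 of the Tim-4+ subset is the deepest blue, at -0.55.

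Several genes outside the group with the most similar profile belong to the same pathway. Among tested genes with a mean of at least 1 CPM, the 10 closest to the mean standardized profile over the 15 libraries began with Sc5d (r = 0.94), Msmo1 (r = 0.94) and Nsdhl (r = 0.93), all enzymes between lanosterol and cholesterol, followed by Prelid3b, Klhl18, Rnf24, Ndfip2, Dgat2, Slc35b3 and Tinf2 (r = 0.87 to 0.91). Over the 12 centred macrophage libraries, the genes that were closest included Slc44a5 (r = 0.89), St5 (r = 0.88), Cox17, Firre, Trim39, Tmem51os1 and Cenph (r = 0.84 to 0.87).

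The rest of the synthesis pathway was read from lists of enzymes. Of 22 enzymes in all, the 6 above included, 11 were higher and 1 was lower in Tim-4-CD4+ cells than in the CD4- subset and 14 were higher and 1 lower in the Tim-4+ subset, with medians of 0.49 and 0.37 log2. Of all genes, 4.52% were higher and 5.53% lower in the first comparison and 11.3% higher and 11.9% lower in the second. Between the CD4+ subsets edgeR called 0 of the 22, at a median of -0.10, where 3.41% of all genes were called. Against monocytes 10, 17 and 14 of the 22 were higher and 5, 3 and 5 lower in the 3 subsets, where 37.3%, 39.1% and 39.5% of all genes were higher and 28.1%, 30.7% and 31.3% lower. The count for the CD4- subset was near that background.

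**Figure D5:**
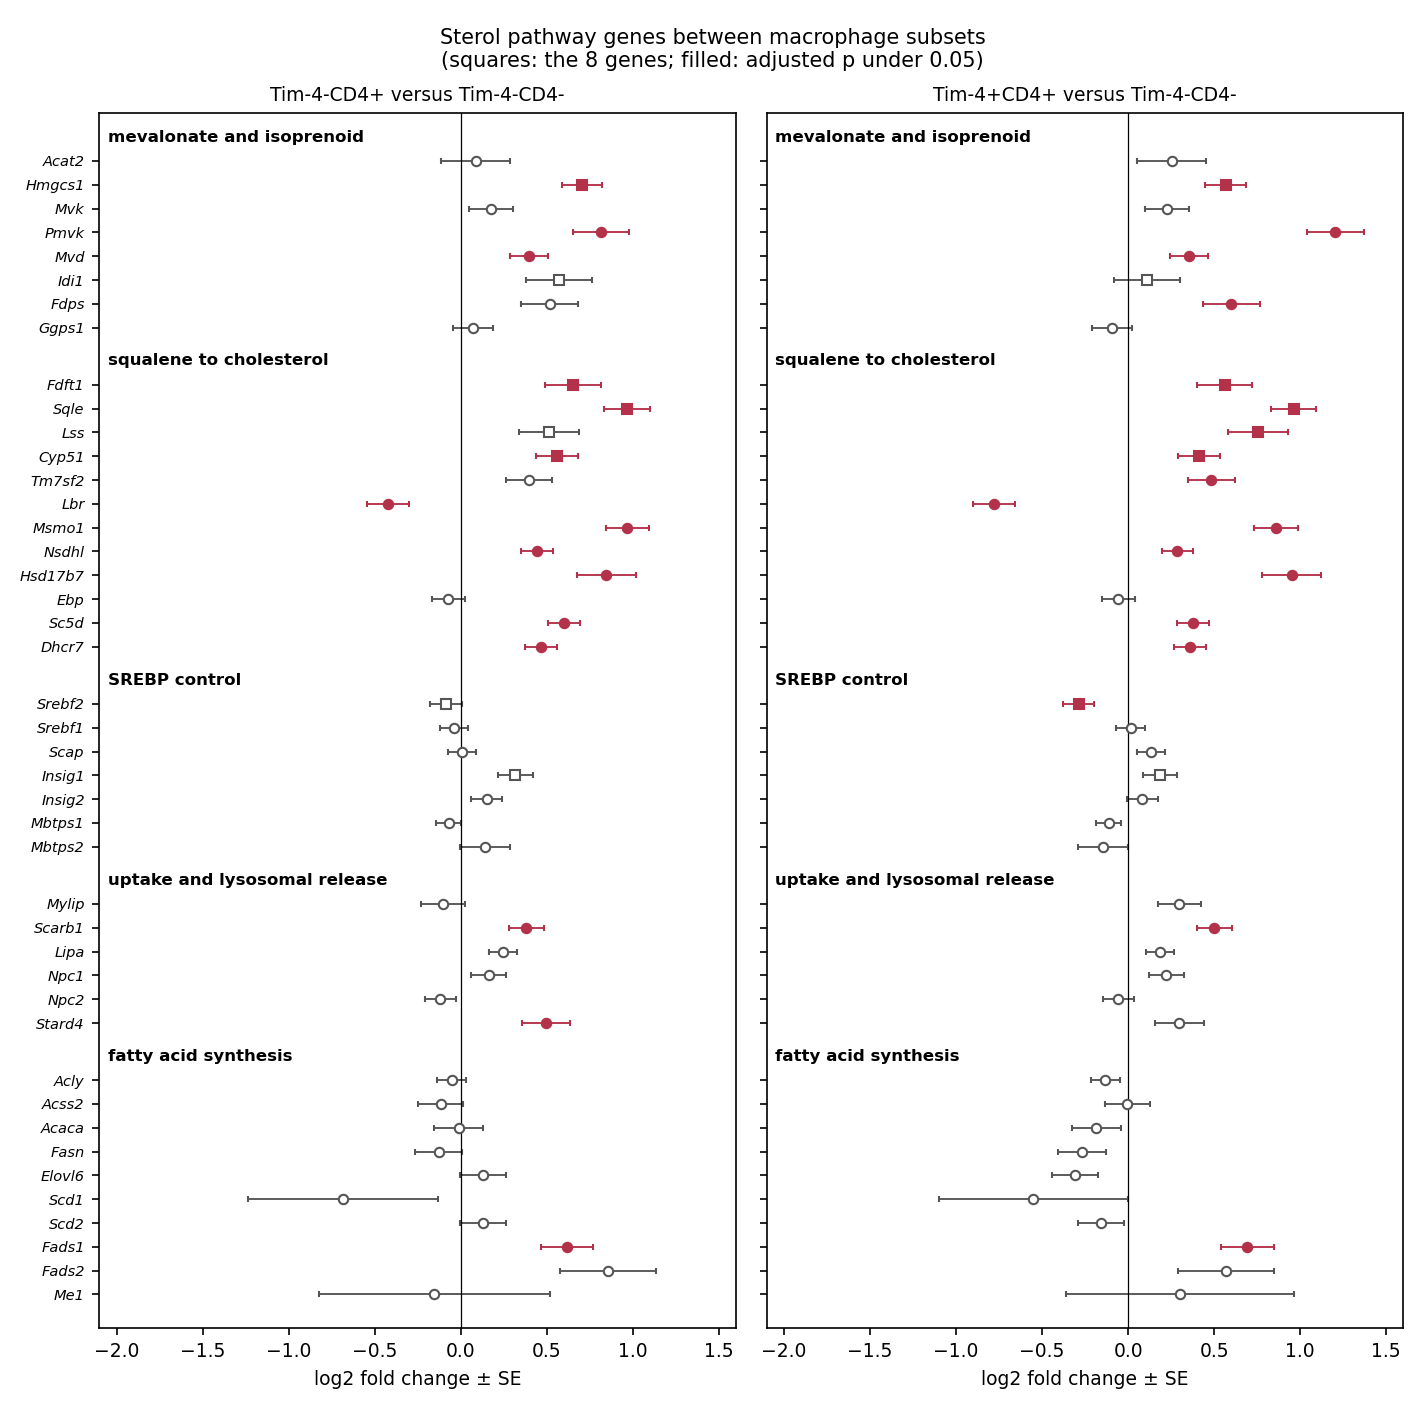
Log2 fold change with its SE (horizontal axis) of sterol pathway genes by step (rows), in Tim-4-CD4+ cells (left) and the Tim-4+ subset (right) against the CD4- subset; squares are the 8 genes and filled symbols passed an edgeR adjusted p of 0.05. Msmo1, Sqle, Hsd17b7 and Pmvk are the filled enzymes farthest right, Lbr is the one filled enzyme left of 0, and Fads1 is the one filled gene of fatty acid synthesis.

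Of the 7 other enzymes of the mevalonate and isoprenoid steps, 2 were higher in Tim-4-CD4+ cells and 3 in the Tim-4+ subset (4.52% and 11.3% of all genes), with none lower. Pmvk, phosphomevalonate kinase, had log2 fold changes of 0.82 ± 0.16 (SE, edgeR adjusted p = 0.00344) and 1.21 ± 0.16 (SE, edgeR adjusted p = 4.37e-05), and Mvd, the decarboxylase that follows it, of 0.40 ± 0.11 (SE, edgeR adjusted p = 0.0292) and 0.35 ± 0.11 (SE, edgeR adjusted p = 0.0284). Fdps, farnesyl diphosphate synthase, passed in the Tim-4+ subset at 0.60 ± 0.17 (SE, edgeR adjusted p = 0.0144).

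The 9 other enzymes from lanosterol to cholesterol held 5 that were higher in Tim-4-CD4+ cells and 6 in the Tim-4+ subset (4.52% and 11.3% of all genes), and 1 that was lower in each (5.53% and 11.9% of all genes). Msmo1, the methyl sterol oxidase that acts after Cyp51, averaged 53.2 ± 4.595, 104 ± 15.8 and 96.6 ± 13.9 CPM in the 3 subsets (SD, n = 4 each), at 0.97 ± 0.13 (SE, edgeR adjusted p = 9.28e-05) and 0.86 ± 0.13 (SE, edgeR adjusted p = 9.68e-05). Hsd17b7, a keto-sterol reductase, gave 0.85 ± 0.17 (SE, edgeR adjusted p = 0.00385) and 0.95 ± 0.17 (SE, edgeR adjusted p = 0.000618). Sc5d, a sterol desaturase, gave 0.60 ± 0.09 (SE, edgeR adjusted p = 0.000549) and 0.38 ± 0.09 (SE, edgeR adjusted p = 0.00794), and Dhcr7, a reductase at the end of the pathway, 0.47 ± 0.09 (SE, edgeR adjusted p = 0.00353) and 0.36 ± 0.09 (SE, edgeR adjusted p = 0.00969).

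Lbr was the exception. It encodes a sterol reductase that is also a lamin receptor of the inner nuclear membrane, and it averaged 94.9 ± 8.17 CPM in the CD4- subset, 70.8 ± 1.91 CPM in Tim-4-CD4+ cells and 55.3 ± 9.36 CPM in the Tim-4+ subset (SD, n = 4 each). Its log2 fold changes were -0.42 ± 0.12 (SE, edgeR adjusted p = 0.0355) and -0.78 ± 0.12 (SE, edgeR adjusted p = 0.000180). Tm7sf2, the other reductase of the same step, gave 0.40 ± 0.13 (SE, edgeR adjusted p = 0.0752) in Tim-4-CD4+ cells, which did not pass, and 0.48 ± 0.13 (SE, edgeR adjusted p = 0.0148) in the Tim-4+ subset.

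Of the 5 other genes for SREBPs and their processing (Srebf1, Scap, Insig2, Mbtps1 and Mbtps2), edgeR called 0 between any of the subsets. Their log2 fold changes lay between -0.28 and 0.15 in the 3 comparisons. With 10.1%, 23.1% and 3.41% of all genes called, 0 of 5 is near the background, and at an unadjusted p under 0.05 the count was also 0. Scap, which escorts SREBP to the Golgi, was higher in the 3 subsets than in monocytes, at 0.63 ± 0.09 (SE, edgeR adjusted p = 1.19e-05), 0.64 ± 0.09 (SE, edgeR adjusted p = 9.13e-06) and 0.76 ± 0.09 (SE, edgeR adjusted p = 1.09e-06). Srebf1, which encodes SREBP-1, was lower in all 3, at -0.55 ± 0.09 (SE, edgeR adjusted p = 3.8e-05), -0.59 ± 0.09 (SE, edgeR adjusted p = 1.65e-05) and -0.54 ± 0.09 (SE, edgeR adjusted p = 4.06e-05).

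For uptake and lysosomal release, 8 of 9 listed genes were tested, and 2 were higher in each CD4+ subset than in the CD4- subset (4.52% of all genes in Tim-4-CD4+ cells and 11.3% in the Tim-4+ subset). Scarb1, a receptor for HDL and other lipoproteins, was higher in both, at 0.38 ± 0.10 (SE, edgeR adjusted p = 0.0227) and 0.50 ± 0.10 (SE, edgeR adjusted p = 0.00164). Stard4, a sterol carrier, was higher in Tim-4-CD4+ cells, at 0.50 ± 0.14 (SE, edgeR adjusted p = 0.0344). Npc2, which hands on sterol in the lysosome, was the most abundant of the list, at means of 698, 644 and 672 CPM. Against monocytes 3 of the 8 were higher in each subset, near the 37.3% to 39.5% of all genes, and 5, 3 and 3 were lower, beside 28.1%, 30.7% and 31.3% of all genes.

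For storage and efflux, 2 of 7 genes were higher in Tim-4-CD4+ cells and 3 in the Tim-4+ subset (4.52% and 11.3% of all genes). Nceh1, a cholesteryl ester hydrolase, was higher in both, at 0.65 ± 0.10 (SE, edgeR adjusted p = 0.000293) and 0.57 ± 0.10 (SE, edgeR adjusted p = 0.000360). Soat1, which esterifies cholesterol, was higher in Tim-4-CD4+ cells, at 0.33 ± 0.09 (SE, edgeR adjusted p = 0.0309). Nr1h3, which encodes the oxysterol receptor LXR-alpha, and the exporter Abcg1 were higher in the Tim-4+ subset, at 0.55 ± 0.15 (SE, edgeR adjusted p = 0.0134) and 0.33 ± 0.08 (SE, edgeR adjusted p = 0.00903). Abcg1 was the 1 gene of the sterol lists called between the CD4+ subsets, at 0.49 ± 0.08 (SE, edgeR adjusted p = 0.00219), higher in the Tim-4+ subset. Apoe was the most abundant, at means of 25158, 29427 and 32137 CPM.

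Of 10 genes of fatty acid synthesis and desaturation, which SREBP-1 governs more than SREBP-2, Fads1, a fatty acid desaturase, was the 1 that was called between either CD4+ subset and the CD4- subset, a share no larger than the 10.1% and 23.1% of all genes called. It was higher in the CD4+ subsets, at 0.62 ± 0.15 (SE, edgeR adjusted p = 0.0151) and 0.69 ± 0.15 (SE, edgeR adjusted p = 0.00328), and the medians of the list were -0.03 and -0.14 log2. Acly, which makes cytosolic acetyl-CoA and had the highest mean of the list over all 4 populations, with 313 CPM in monocytes, averaged 182 and 172 CPM in the CD4+ subsets, below Fads1 at 236 and 249 CPM. Acly gave -0.05 ± 0.08 (SE, edgeR adjusted p = 0.793) and -0.13 ± 0.08 (SE, edgeR adjusted p = 0.289). Whether the sterol and fatty acid lists differ was not tested.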

How the data were processed

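Raw counts per gene of 15 libraries were taken from the table that the authors deposited. Per the labels and the study's methods, reads were trimmed with Trimmomatic 0.36, aligned to GRCm38.p4 with STAR, kept where uniquely mapped and counted by HTSeq 0.6.1p1. The strand setting is not given in the sources used here. Another 15 columns of normalized values in the deposited table were not used. Populations were compared with edgeR 4.0.16 (quasi-likelihood test, all libraries in one fit without a block, filterByExpr, TMM, Benjamini-Hochberg adjustment over the genes tested, threshold 0.05), checked on simulated counts. DESeq2 1.42.0, other scalings and filters, blocks, a 2-fold threshold and leaving out each library were alternatives. RPKM used merged GENCODE exons of a later release than the authors' annotation. All 8 members are named in every comparison, and of other lists at most 4 called genes with the largest changes and the most abundant gene. The members and lists were chosen with earlier results of these data known. Titles and descriptions number the Tim-4-CD4+ libraries differently, and title numbers were used. The study states that macrophages came from 4 independent sorts and monocytes from 3, each of pooled mice. The labels do not say whether the subsets of a sort share mice. The p-values measure the spread between these pools. Some genes of the lists are counted with their list but not reported here by name or value.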

Additional observations from a re-analysis of the deposited data

Results flagged for a closer look

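Idi1 in replicate 1 of the Tim-4+CD4+ macrophages lay far from the others of its group, at 5.15 CPM against 8.28 to 8.82 CPM in replicates 2 to 4. Of 24 sets of libraries examined (8 genes in the 3 macrophage subsets), 1 held such a library, and chance gives about 1 in 20.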

How the results depend on the processing

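Over 48 results (8 genes in 6 comparisons) and 24 alternatives each, 1056 of 1152 values kept their direction and side of the threshold, 48 lost the call, 33 gained one and 15 changed sign, of which 0 were called results. The sign changes were all between the CD4+ subsets. Sqle was 0.0043 with RLE scaling, 0.030 with upper-quartile scaling, 0.016 for genes averaging 1 CPM or more and 0.0041 by DESeq2, and -0.13 to 0.11 without single libraries. Fdft1 was -0.21 to 0.051 without single libraries. Against monocytes, the count in Tim-4-CD4- macrophages was 2 with a filter of at least 1 count, 1 at a change of at least 2-fold and 2 to 4 without single libraries, and in Tim-4-CD4+ cells 3 at 2-fold and 6 to 8 without single libraries (6 without monocyte replicate 1). For Tim-4+CD4+ cells against monocytes it was 6 to 8 without single libraries. Tim-4-CD4+ against Tim-4-CD4- gave 7 by DESeq2, 0 at 2-fold, 2 without the description-4 libraries and 3 to 6 without single libraries (3 without Tim-4-CD4+ replicate 2, 6 without Tim-4+CD4+ replicate 1). In the comparison of Tim-4+CD4+ with Tim-4-CD4- it was 0 at 2-fold and 4 to 6 without single libraries (4 without Tim-4+CD4+ replicate 4). The cause was not tested. Over all genes, DESeq2 called 917 between the CD4+ subsets against 539 by edgeR, and without the description-4 libraries edgeR called 734 against 1589, 2196 against 3656 and 264 against 539 between the subsets.

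Replicate numbers did not pair the samples as a whole: 2 of 12 pairs with the same title number had correlated deviations over 0.1 and 3 of 12 libraries correlated best with their own number, and 4 and 5 with description numbers. The 3 libraries with description number 4 were an exception, since all 3 of their pairs were over 0.1 (r = 0.16, 0.13 and 0.14) and each was the best match. With a replicate block the 6 counts were 3, 7, 6, 4, 5 and 0 by title numbers and 3, 7, 6, 4, 6 and 0 by description numbers. Levels of Idi1 and Lss, under 20 CPM in every library, rest on the fewest counts.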

Other observations

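Some genes of cholesterol efflux and of the fatty acid list differed between monocytes and macrophages. Apoe, which carries cholesterol out of macrophages, averaged 1414 CPM in monocytes and 25158, 29427 and 32137 CPM in Tim-4-CD4- macrophages and the CD4+ subsets, with log2 fold changes of 4.15 ± 0.22 (SE, edgeR adjusted p = 4.02e-11), 4.38 ± 0.22 (SE, edgeR adjusted p = 1.93e-11) and 4.51 ± 0.22 (SE, edgeR adjusted p = 1.32e-11). The exporter Abca1 rose by 4.56 ± 0.36 (SE, edgeR adjusted p = 9.11e-09), 4.42 ± 0.36 (SE, edgeR adjusted p = 1.05e-08) and 4.09 ± 0.35 (SE, edgeR adjusted p = 2.13e-08). Of the 7 genes of storage and efflux, 4 were higher and 1 was lower in each subset, where 37.3% to 39.5% of all genes were higher and 28.1% to 31.3% lower.

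Fads1, a fatty acid desaturase, averaged 2.396 CPM in monocytes and 154, 236 and 249 CPM in the subsets, at log2 fold changes of 5.98 ± 0.22 (SE, edgeR adjusted p = 4.25e-13), 6.60 ± 0.23 (SE, edgeR adjusted p = 1.43e-13) and 6.67 ± 0.23 (SE, edgeR adjusted p = 1.12e-13). Acss2, which makes acetyl-CoA from acetate, averaged 21.97 CPM in monocytes and 5.64, 5.20 and 5.62 CPM in the subsets, at -1.96 ± 0.14 (SE, edgeR adjusted p = 2.47e-09), -2.08 ± 0.14 (SE, edgeR adjusted p = 9.69e-10) and -1.97 ± 0.14 (SE, edgeR adjusted p = 1.72e-09). Of the 10 genes of fatty acid synthesis and desaturation, 4 were higher in each subset and 4, 3 and 5 were lower. Of all genes, 37.3% to 39.5% were higher and 28.1% to 31.3% lower, so the higher count was near that background. The list medians were -0.09, -0.09 and -0.30 log2. Population and preparation cannot be told apart in these values.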
